A study of Mus musculus with 8 samples.

Results

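The immediate early response genes examined here are *Fos*, *Fosb*, *Jun*, *Junb*, *Egr1*, *Ier2*, *Ier3*, *Nr4a1*, *Zfp36*, and *Dusp1*. They were taken by gene name from the deposited table, and all 10 were found among its 55367 genes. RNA-Seq had been performed on whole kidneys of 8 mice, 4 *c-Maf*ΔTAM and 4 *c-Maf* fl/fl, on the C57BL/6J background, labelled as 8 weeks old, with 1 library per mouse. *c-Maf*ΔTAM mice (Maf conditional KO in the labels) carry floxed *c-Maf* and the tamoxifen-inducible Cre recombinase *CAG-Cre-ER*TM, whose CAG promoter is active in most cell types, so the deletion is not limited to the kidney. *c-Maf* fl/fl mice (Maf flox/flox in the labels) carry the floxed alleles without Cre, and the study's methods state that control mice also received tamoxifen (TAM), so both groups share the floxed alleles and the drug. These groups are called knockout and control mice below. The paper ties this experiment to TAM(10d), and the labels give neither the sex nor the time of day of tissue collection. The comparison asks how loss of c-Maf changes the kidney transcriptome.

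Immediate early genes are switched on within minutes of a stimulus, because the factors that bind their promoters, among them serum response factor, ETS proteins, and CREB, are already in the cell and need only be phosphorylated. Fos and Jun proteins pair into the transcription factor AP-1, Egr1 and Nr4a1 are DNA-binding factors with their own targets, and Zfp36 and Dusp1 end the response, Zfp36 by destabilizing mRNAs with AU-rich elements and Dusp1 by dephosphorylating MAP kinases. Their mRNAs are short-lived. c-Maf belongs to the same superfamily of basic leucine zipper proteins as Fos and Jun.

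Total counts ranged from 16649129 to 22990257 per library. The targeted gene *Maf* had 178, 671, 533, and 187 counts in knockout mice 1 to 4 and 7746, 7580, 6018, and 5988 counts in control mice 1 to 4, as the labels state. Mitochondrial genes took 17.1% to 32.3% of the counts, with the highest shares in knockout mouse 1 (32.3%) and control mouse 4 (25.5%). The female-specific transcript *Xist* was at 2 counts in knockout mouse 1 and at 6 and 22 counts in control mice 3 and 4, and at 17618 to 22387 counts in the other 5 libraries. The extraction protocol in the labels names liver, whereas *Lrp2*, the endocytic receptor of the proximal tubule, was at 4466 to 8602 CPM and *Alb*, the albumin gene of hepatocytes, at 0.661 to 8.85 CPM, as in kidney tissue. All levels are TMM-normalized CPM, the counts scaled to the effective size of the library. Whole kidneys were sequenced, so fewer cells of a type and less RNA per cell cannot be told apart.

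The sequences below show features that members of the group share and that the choice of genes did not use. *Fos* and *Nr4a1* are shown because they stood out together in the same library (values follow), and *Dusp1* because its promoter holds the full cAMP response element TGACGTCA. Promoters are RefSeq sequences on GRCm38.p6, from 250 bases before to 50 bases after the annotated start, 5′ to 3′. Entries were found for 8 of the 10 members, all but *Egr1* and *Ier2*. Capitals mark every TGACG, the core of the cAMP response element to which CREB and ATF proteins bind, or its reverse complement CGTCA, and in *Fos* also the TATA box TATAAA.
Fos (chr12:85473640-85473939, plus strand): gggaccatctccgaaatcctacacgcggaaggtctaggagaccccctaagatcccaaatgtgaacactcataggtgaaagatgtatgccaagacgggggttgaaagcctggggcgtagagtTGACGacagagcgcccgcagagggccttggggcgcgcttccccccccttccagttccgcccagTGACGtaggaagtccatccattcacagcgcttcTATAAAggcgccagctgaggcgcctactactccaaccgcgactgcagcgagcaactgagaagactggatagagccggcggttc
Nr4a1 (chr15:101266596-101266895, plus strand): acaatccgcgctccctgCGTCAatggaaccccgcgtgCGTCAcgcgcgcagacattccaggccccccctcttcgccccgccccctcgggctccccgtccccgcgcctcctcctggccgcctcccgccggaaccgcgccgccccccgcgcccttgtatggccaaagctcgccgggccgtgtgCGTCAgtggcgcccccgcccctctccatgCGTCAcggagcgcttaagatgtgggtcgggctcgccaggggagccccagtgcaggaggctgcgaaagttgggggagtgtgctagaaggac
Dusp1 (chr17:26508423-26508722, minus strand): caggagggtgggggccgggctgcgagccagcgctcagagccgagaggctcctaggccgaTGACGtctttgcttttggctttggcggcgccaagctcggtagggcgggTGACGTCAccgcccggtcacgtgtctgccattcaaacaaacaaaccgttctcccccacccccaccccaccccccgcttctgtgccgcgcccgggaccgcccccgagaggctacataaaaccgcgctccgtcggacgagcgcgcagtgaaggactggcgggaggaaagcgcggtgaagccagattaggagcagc

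TGACG on either strand was found in 5 of the 8 member promoters, *Fos*, *Fosb*, *Junb*, *Nr4a1*, and *Dusp1*, and in 20.8% of 32851 promoters of the same length. *Nr4a1* held 4 copies, starting 233, 213, 69, and 40 bases before its start site. The full element TGACGTCA, which contains TGACG on both strands, was found only in *Dusp1* among the 8 (1.79% of all promoters). A perfect CArG box, the site of serum response factor, was found only in *Zfp36* (1.63% of all), and GCGNGGGCG, the site bound by Egr1, in *Fosb*, *Zfp36*, and *Nr4a1* (5.55% of all), both searched on either strand. The AP-1 site TGANTCA was in none of the 8 (7.81% of all, both strands). These matches describe letters in 300-base windows and not bound sites. Sequence farther upstream and the promoters of *Egr1* and *Ier2* were not searched.

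AU-rich elements, which shorten the life of an mRNA, were counted in the 3′ UTRs. The heptamer TATTTAT, the core to which Zfp36 binds, lay in the 3′ UTR of 6 of the 10 members, compared with 27.4% of 13757 tested coding genes with a 3′ UTR, and at 1.51 copies per kilobase of 3′ UTR compared with 0.288 over all of them. *Ier3* had 4 copies, *Dusp1* and *Zfp36* had 3 each, *Fos* had 2, and *Fosb* and *Jun* had 1 each. The lines below show the copy nearest the stop codon in 4 of these mRNAs, as GENCODE transcript sequence on GRCm38 in DNA letters, with the heptamer in capitals and 9 bases on either side.
Fos (chr12:85477105-85477129, plus strand): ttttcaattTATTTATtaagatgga
Ier3 (chr17:35822483-35822507, plus strand): tctaattaaTATTTATgtatttatg
Zfp36 (chr7:28376968-28376992, minus strand): tgggcccttTATTTATgacgacttt
Dusp1 (chr17:26506161-26506185, minus strand): gctggtcctTATTTATttaacaccc

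The genes were also short. The median span of the coding transcript was 3286.5 bases in the group, with a longest of 20527 bases in *Nr4a1*, whereas the median over 13998 tested coding genes was 22504.5 bases. *Jun*, *Junb*, and *Ier2* consist of 1 exon each, which held for 2.82% of all tested coding genes.

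Levels per length differed widely among the members. In control kidneys, the level per kilobase of exon was highest for *Ier3* (33.8 ± 14.3 CPM per kilobase; SD, n = 4), followed by *Jun* (17.0 ± 3.67), *Dusp1* (16.1 ± 4.60), *Junb* (12.2 ± 2.04), *Zfp36* (8.11 ± 0.611), *Ier2* (7.27 ± 0.386), *Egr1* (2.09 ± 0.394), *Nr4a1* (1.39 ± 0.427), *Fos* (0.545 ± 0.223), and *Fosb* (0.0845 ± 0.0777). The steps from *Junb* to *Zfp36*, from *Ier2* to *Egr1*, from *Nr4a1* to *Fos*, and from *Fos* to *Fosb* were larger than the spread between mice. For all other neighbors in this order, the ranges of mean ± SD overlapped. The length used was that of all annotated exons, 3470 bases in *Zfp36* and 3311 bases in *Dusp1*. Their coding transcripts have 2790 and 1990 bases, so the order of neighbors can depend on this choice. Both *Jun* genes were thus above both *Fos* genes per length.

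No immediate early gene differed between genotypes past the threshold. With edgeR's quasi-likelihood test and an adjusted *P* of 0.05 over 20149 tested genes, 0 of the 10 members were higher and 0 were lower in knockout mice, compared with 2.16% of all tested genes (0.586% higher and 1.58% lower). At an unadjusted *P* under 0.05, 1 of the 10 members differed, compared with 14% of all tested genes (7.44% lower, the direction of that member). DESeq2 and edgeR's exact test also called 0 members (4.4% and 1.91% of all genes tested), with 1 and 2 members at an unadjusted *P* under 0.05 (14% and 9.17% of all genes tested). The median log2 fold change of the group was 0.06, and that of all tested genes was 0.00.

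**Figure D1:**
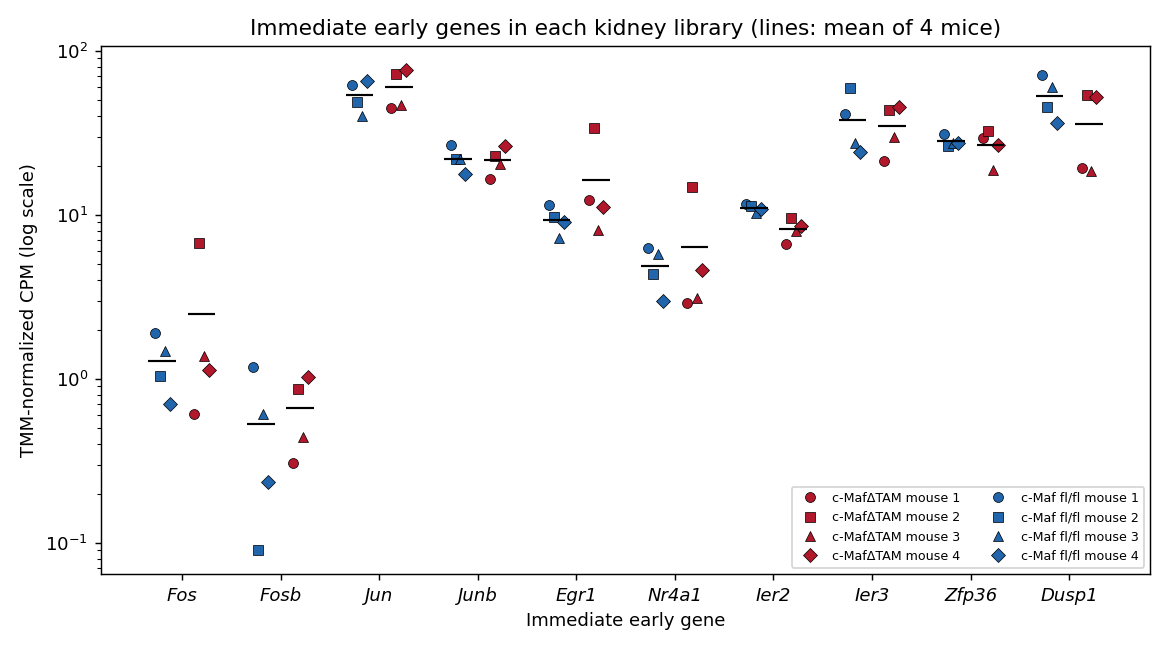
TMM-normalized CPM (log scale) of the 10 immediate early genes in each of the 8 kidney libraries, with control mice in blue, knockout mice in red, a symbol for each mouse number, and lines at the mean of 4 mice. Knockout mouse 2 lies above all other libraries in *Fos*, *Egr1*, and *Nr4a1*, and *Ier2* is the only gene in which the 2 genotypes do not overlap.

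*Fos* encodes the founding Fos subunit of AP-1 and lies at chr12:85473890-85477273 (GRCm38, plus strand). Its levels were 0.611, 6.78, 1.39, and 1.14 CPM in knockout mice 1 to 4 and 1.91, 1.04, 1.47, and 0.704 CPM in control mice 1 to 4. Knockout mouse 2 was the highest of all libraries, and the other 7 libraries of both genotypes overlapped. That library held 132 *Fos* reads (95% exact Poisson interval 5.67 to 8.04 CPM), against 12 to 39 reads in the others, and was 6.49 times the mean of the other 3 knockout mice. The difference of knockout from control mice was 0.94 ± 0.736 on the log2 scale (standard error; 95% interval, -0.74 to 2.63; edgeR adjusted *P* = 0.634), and it was -0.30 without knockout mouse 2. Intervals of single libraries cover counting error only.

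*Egr1*, a zinc finger factor induced by growth factors and ischemia, lies at chr18:34859823-34864984 (plus strand). It was at 12.3, 33.8, 8.15, and 11.3 CPM in knockout mice 1 to 4 and at 11.5, 9.75, 7.20, and 9.09 CPM in control mice 1 to 4. Again knockout mouse 2 stood above every other library, and the remaining 7 overlapped. The difference was 0.81 ± 0.449 on the log2 scale (standard error; 95% interval, -0.24 to 1.85; edgeR adjusted *P* = 0.49), and it was 0.17 without that mouse. *Nr4a1*, an orphan nuclear receptor, lies at chr15:101254269-101274795 (plus strand). It was at 2.90, 14.8, 3.10, and 4.60 CPM in knockout mice 1 to 4 and at 6.33, 4.38, 5.79, and 2.99 CPM in control mice 1 to 4. The same library was highest here as well. The log2 fold change of *Nr4a1* was 0.38 ± 0.561 (standard error; 95% confidence interval, -0.92 to 1.68, edgeR adjusted *P* = 0.823), and it was -0.47 without knockout mouse 2, so that 1 library set the sign of the difference in *Fos* and *Nr4a1* and most of its size in *Egr1*.

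**Figure D2:**
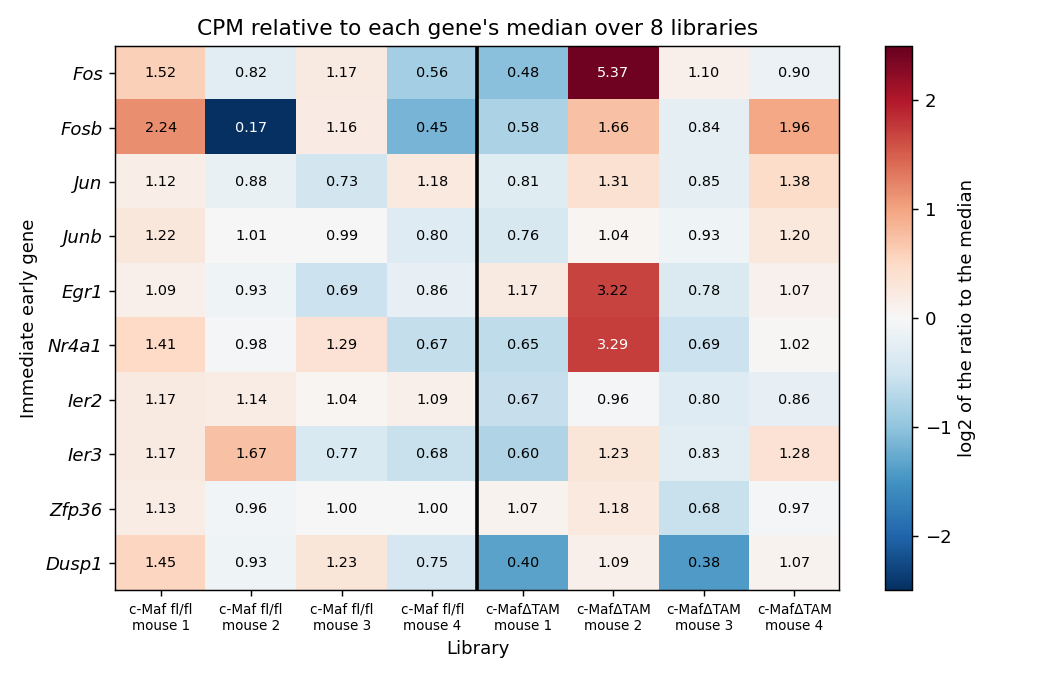
CPM of each immediate early gene divided by its median over the 8 libraries (number in each cell; color, log2 of that ratio), with control mice to the left and knockout mice to the right of the black line. Knockout mouse 2 is at 5.37 times the median in *Fos*, 3.22 in *Egr1*, and 3.29 in *Nr4a1*, and knockout mice 1 and 3 are at 0.40 and 0.38 in *Dusp1*.

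The 3 genes did not carry the other members with them to the same extent. In knockout mouse 2, *Dusp1* was 1.79 times the mean of the other 3 knockout mice, *Fosb* 1.47 times, *Ier3* 1.37 times, *Zfp36* 1.31 times, *Jun* 1.29 times, *Ier2* 1.24 times, and *Junb* 1.08 times. This library was the highest of all 8 for 4 members and the highest of its genotype for 6. Control mouse 1 was the highest of all 8 for another 4 members and the highest of its genotype for 8. At the other end, knockout mouse 1 was the lowest of all 8 for 5 members, and it had the largest mitochondrial share. Control mouse 4, with the next largest mitochondrial share, was among the lowest pair of libraries for 5 members. Knockout mouse 3 was among the lowest pair for 4 members and had a summed member level of 155.5 CPM, next to 154.1 CPM in knockout mouse 1, but its mitochondrial share was 21.6%, below the 22.1% of knockout mouse 2, whose sum was the highest at 291.4 CPM. Knockout mouse 1 and control mouse 4 were also among the 3 libraries with low *Xist*. With an *Xist* covariate in the fit, the log2 fold change was 0.58 for *Fos*, 0.70 for *Egr1*, and 0.16 for *Nr4a1*. Without the covariate it was 0.94, 0.81, and 0.38. The part of the mitochondrial share in these levels was not tested.

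The remaining AP-1 genes showed no such single high library. *Jun*, at chr4:95049034-95052222 (minus strand), was at 44.8, 72.4, 47.0, and 76.6 CPM in knockout mice 1 to 4 and at 61.9, 48.9, 40.3, and 65.7 CPM in control mice 1 to 4. Both genotypes held high and low libraries, and the difference was 0.15 ± 0.22 on the log2 scale (standard error; 95% interval, -0.35 to 0.65; edgeR adjusted *P* = 0.822). The antisense gene *Junos* covers 7.28% of its exons, where reads were left uncounted. *Junb*, at chr8:84976910-84978718 (minus strand), was at 16.6, 22.8, 20.5, and 26.4 CPM in knockout mice 1 to 4 and at 26.7, 22.1, 21.8, and 17.6 CPM in control mice 1 to 4. Its genotypes overlapped almost completely, with a log2 fold change of -0.03 (95% confidence interval -0.37 to 0.31, edgeR adjusted *P* = 0.953), and 6.32% of its 36-base sequences recur in other genes, mainly *Prdx2*. *Fosb*, at chr7:19302696-19310051 (minus strand), had 6, 17, 8, and 19 counts in knockout mice and 24, 2, 12, and 4 counts in control mice. At 2 to 24 reads per library, its log2 fold change of 0.32 had a 95% confidence interval from -1.10 to 1.74, and its SD within genotypes was 0.978 on the log2 scale, where counting error alone corresponds to about 0.529.

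*Ier2* was the one member whose genotypes did not overlap. *Ier2* encodes a small nuclear protein and lies at chr8:84661331-84662854 (minus strand). It was at 6.67, 9.60, 7.98, and 8.61 CPM in knockout mice 1 to 4 and at 11.7, 11.3, 10.4, and 10.9 CPM in control mice 1 to 4, with means of 8.21 ± 1.23 and 11.1 ± 0.588 CPM (SD, n = 4). All 4 knockout mice were below all 4 control mice (*P* = 0.0286 in a two-sided exact permutation test, which can go no lower with groups of 4), which was also the case for 5.62% of all tested genes, or 9.79% with either direction counted. The log2 fold change of -0.43 ± 0.138 (standard error) had a 95% confidence interval of -0.73 to -0.13, an unadjusted *P* of 0.00889 and an adjusted *P* of 0.166 in edgeR's quasi-likelihood test, which does not pass the threshold over all genes. Leaving out any 1 mouse moved it no further than -0.52 or -0.34. With an *Xist* covariate in the fit, it reached -0.49 (adjusted *P* = 0.0339), whereas the adjusted *P* ranged from 0.0339 to 0.382 over all alternatives. *Ier2* also had the smallest spread of the group within a genotype, with an SD of 0.164 on the log2 scale.

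*Ier3*, which encodes a regulator of cell survival, lies at chr17:35821684-35822923 (plus strand). It was at 21.2, 44.0, 29.7, and 45.5 CPM in knockout mice 1 to 4 and at 41.5, 59.6, 27.4, and 24.2 CPM in control mice 1 to 4. The genotypes overlapped over most of their range, with a log2 fold change of -0.12 ± 0.359 (standard error; 95% confidence interval -0.97 to 0.72, edgeR adjusted *P* = 0.922).

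The inhibitors of the response differed from each other in their spread. *Zfp36*, at chr7:28376784-28380253 (minus strand), was at 29.3, 32.6, 18.7, and 26.6 CPM in knockout mice 1 to 4 and at 31.2, 26.3, 27.6, and 27.4 CPM in control mice 1 to 4. Knockout mouse 3 was the only library below 26 CPM, and the log2 fold change was -0.07 (95% confidence interval -0.39 to 0.25, edgeR adjusted *P* = 0.883). *Dusp1*, at chr17:26505590-26562128 (minus strand), was at 19.4, 53.7, 18.5, and 52.4 CPM in knockout mice 1 to 4 and at 71.0, 45.8, 60.2, and 36.6 CPM in control mice 1 to 4. Knockout mice 1 and 3 were below every control mouse, and the other 2 were within the range of that genotype. The difference was -0.57 ± 0.441 on the log2 scale (standard error; 95% interval, -1.62 to 0.48; edgeR adjusted *P* = 0.639). It was negative with any 1 mouse left out, from -0.83 to -0.35.

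**Figure D3:**
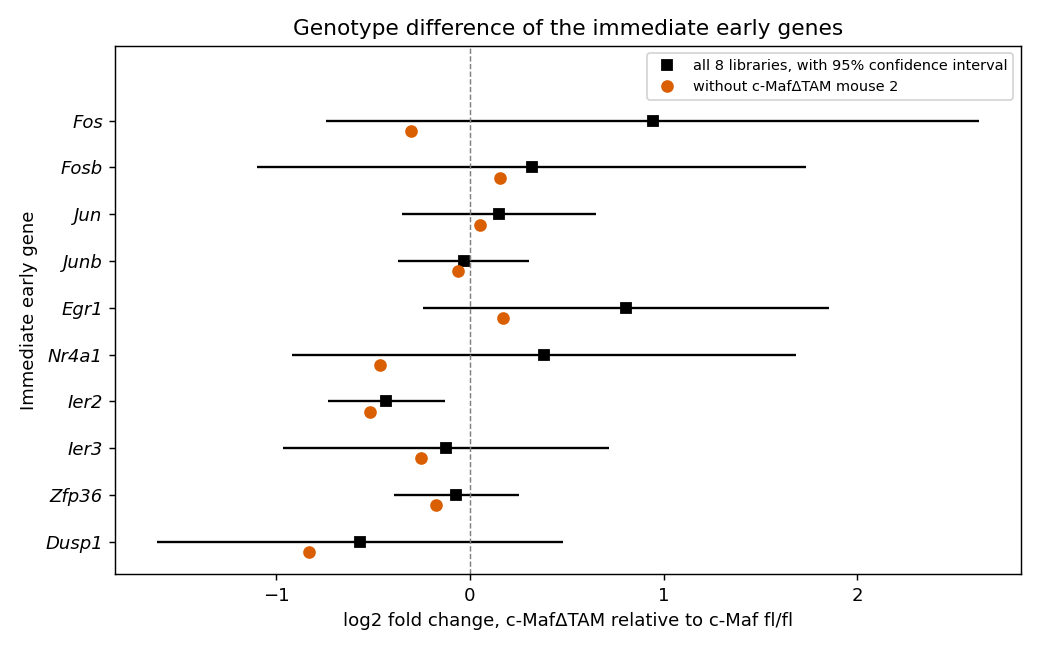
Log2 fold change of each immediate early gene (knockout relative to control) in all 8 libraries with its 95% confidence interval (black squares and bars), and without knockout mouse 2 (orange circles). All intervals except that of *Ier2* (-0.73 to -0.13) include 0, and *Fos* and *Nr4a1* move across 0 to -0.30 and -0.47 without that mouse.

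The spread between mice of one genotype was large for 6 of the members, in 3 of them mainly through 1 library. Among 17484 tested genes with at least 1 CPM on average, the median SD of log2 CPM within genotypes was 0.221. *Fos* had an SD of 1.07, larger than that of 99% of these genes, *Nr4a1* of 0.828 (97.9%), *Dusp1* of 0.674 (96%), *Egr1* of 0.653 (95.6%), and *Ier3* of 0.556 (92.8%). *Fosb*, which averaged below 1 CPM and so has no place in this ranking, had an SD of 0.978, with counting error at about 0.529. *Jun* (0.366, 77.4%), *Junb* (0.263, 59.8%), *Zfp36* (0.255, 58.2%), and *Ier2* (0.164, 32.7%) were closer to the middle. Counting error alone corresponds to an SD of about 0.295 for *Fos*, 0.155 for *Nr4a1*, and 0.0533 for *Dusp1*, all below the SDs measured. Without knockout mouse 2, an alternative chosen after the data had been seen, the SD was 0.565 for *Fos* (92.3%), 0.429 for *Nr4a1* (83.2%), and 0.29 for *Egr1* (64.1%), beside a median of 0.226 over all these genes. *Dusp1* (0.626, 94.3%) and *Ier3* (0.575, 92.7%) moved little without that mouse.

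The members tended to vary in the same direction. Over the 8 libraries, 43 of the 45 pairs of members had a positive Pearson correlation of log2 CPM, with a median of 0.451. After the mean of each genotype was subtracted, all 45 were positive, with a median of 0.572. The pairs share libraries and their scaling, and these medians are descriptions. The closest pair was *Fos* and *Nr4a1* (Pearson *r* = 0.942, two-sided exact permutation *P* = 0.0026; Spearman *rho* = 0.929, exact permutation *P* = 0.00223; n = 8), with adjusted *P* values over the 45 pairs of 0.117 and 0.1, so that 0 pairs passed an adjusted *P* of 0.05. Without knockout mice 1 and 2, the libraries farthest from the median of *Fos*, it was 0.718. *Fos* and *Egr1* had a Pearson *r* of 0.755 (exact permutation *P* = 0.0916, adjusted 0.444) but a Spearman *rho* of 0.119 (exact permutation *P* = 0.793, adjusted 0.811), and *r* was 0.0723 without the same mice, so that relation rested on them. With 4 mice per genotype, no correlation was computed in either genotype alone.

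The closest relatives of the group were examined in the same fit. Of 10 further AP-1 subunit genes, 8 were tested, and 0 were higher and 0 were lower. By CPM averaged over all libraries and without regard to length, those with the most reads were *Atf2* at 67.6 ± 4.48 and 62.2 ± 4.25 CPM in knockout and control mice (SD, n = 4 each) and *Fosl2* at 43.2 ± 10.4 and 37.5 ± 11.4 CPM. Of 30 other early response genes, such as those of the Egr, Nr4a, Klf, and Gadd45 families, 28 were tested and 0 were called in either direction, with a median log2 fold change of 0.02. *Sik1*, a kinase that restrains CREB coactivators, was at 142.7 ± 19.3 and 124.7 ± 12.4 CPM, and *Mcl1*, a survival factor, at 108.4 ± 14.5 and 119.9 ± 17.9 CPM (SD, n = 4 each). *Egr2*, the paralog of *Egr1*, had 35 counts in knockout mouse 2 and 34 and 33 counts in control mice 2 and 3, so that this library did not stand apart for it. *Egr3*, *Nr4a2*, and *Nr4a3*, further paralogs of members, were highest in knockout mouse 4, at 0.487, 1.73, and 2.17 CPM. These 4 genes were chosen after their values had been seen.

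Upstream of the group, the genes of SRF, ETS, and CREB regulators and of the kinases that act on them were examined as well. All 21 were tested, 0 were higher and 0 were lower, and the median log2 fold change was 0.00. *Mapk14*, which encodes p38, was at 124.7 ± 3.48 and 132.4 ± 4.20 CPM in knockout and control mice (SD, n = 4 each).

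Feedback inhibitors and ETS targets of MAP kinase signaling, which limit or follow the same kinases, were compared next. Of 19 such genes, 18 were tested, and edgeR's quasi-likelihood test called 4 lower and 0 higher in knockout mice, beside 1.58% of all tested genes that were lower. Their median log2 fold change was -0.28, and 15 of the 18 were negative, beside 49.5% of all tested genes. The list was chosen with earlier results of these data known, so these shares are descriptions and not a test of the list. *Etv5*, an ETS factor induced by growth factor signaling, was at 14.1 ± 2.51 CPM in control and 3.30 ± 0.933 CPM in knockout mice (SD, n = 4 each), a log2 fold change of -2.09 ± 0.212 (standard error; adjusted *P* = 0.000232). *Dusp4*, a nuclear phosphatase of MAP kinases in the same family as *Dusp1*, fell by 1.36 ± 0.182 on the log2 scale (standard error; adjusted *P* = 0.0019), with 16.3 ± 3.65 CPM in control and 6.33 ± 0.919 CPM in knockout mice. *Spred2* and *Spry4*, inhibitors of Ras and Raf signaling, fell by 0.55 and 0.53 on the log2 scale (adjusted *P* = 0.0071 and 0.0337).

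In each of these 4 genes, all knockout mice were below all control mice. *Etv5* was at 2.44, 4.52, 2.72, and 3.52 CPM in knockout mice 1 to 4 and at 14.3, 10.5, 16.0, and 15.6 CPM in control mice 1 to 4. *Dusp4* was at 6.87, 6.47, 4.99, and 6.98 CPM and at 15.3, 11.6, 19.9, and 18.2 CPM in the same order. Among the knockout mice, mouse 2 was the highest for *Etv5*, *Spred2*, and *Spry4*, and mouse 4 for *Dusp4*. The 19 genes of the list together were at 735.6 CPM in knockout mouse 2. They were at 480.3, 568, and 657.8 CPM in knockout mice 1, 3, and 4. *Etv5*, *Dusp4*, and *Spred2* passed the threshold in all 8 fits that each left out 1 mouse, and *Spry4* passed in 0 of them. With the replicate number as a block, *Etv5* and *Dusp4* passed, but *Spred2* and *Spry4* did not (edgeR adjusted *P* = 0.0836 and 0.187). In the 5 libraries with high *Xist*, *Spry4* did not pass either (edgeR adjusted *P* = 0.144). *Etv4*, which the filter on low counts left out, had 5, 3, 1, and 2 counts in knockout mice and 20, 15, 11, and 6 counts in control mice.

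**Figure D4:**
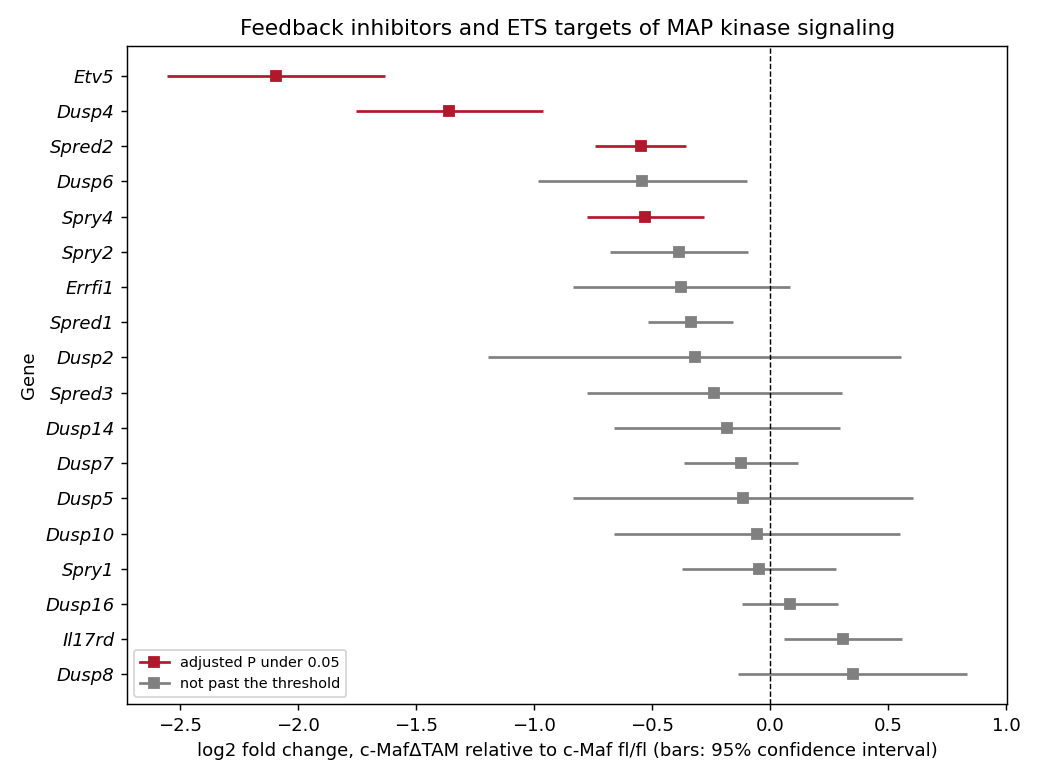
Log2 fold change (knockout relative to control) with its 95% confidence interval for the 18 tested feedback inhibitors and ETS targets of MAP kinase signaling, in red where the adjusted *P* value was under 0.05. *Etv5* (-2.09), *Dusp4* (-1.36), *Spred2* (-0.55), and *Spry4* (-0.53) pass the threshold, and 15 of the 18 genes lie below 0.

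Downstream, mRNAs that Zfp36 is known to destabilize were mostly scarce. Of 13 genes listed as mRNA decay partners and AU-rich mRNAs, 8 were tested, 1 rose and 0 fell. Of all tested genes, 0.586% were higher and 1.58% were lower. The gene that rose was *Ccl2*, a monocyte chemoattractant, with 20, 34, 19, and 10 counts in knockout mice and 6, 4, 6, and 6 counts in control mice. It rose by 1.94 ± 0.436 on the log2 scale (standard error; adjusted *P* = 0.0426 in edgeR's quasi-likelihood test), but it passed the threshold in only 1 of the 8 fits that left out a mouse. *Zfp36l1* and *Zfp36l2*, the paralogs of *Zfp36*, had log2 fold changes of -0.02 and -0.07 and were not called.

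Genes that respond to glucocorticoids were not highest in knockout mouse 2, the library highest for *Fos*, *Egr1*, and *Nr4a1*. The libraries high for them overlapped with those high for the members as a sum, which was 291.4 CPM in knockout mouse 2, 265.0 CPM in control mouse 1, and 254.1 CPM in knockout mouse 4. The 8 glucocorticoid-responsive genes together were at 951 CPM in knockout mouse 4 and at 1071 and 1055 CPM in control mice 1 and 2, compared with 491.7 to 657.7 CPM in the other 5 libraries, and 0 were called in either direction. *Sgk1*, a kinase that raises sodium uptake, was at 64.6, 129.3, 117.4, and 203.4 CPM in knockout mice 1 to 4 and at 257.4, 266.0, 98.0, and 58.8 CPM in control mice 1 to 4. Among heat shock genes, *Hspa1b*, an inducible Hsp70, was at 17.8, 20.9, 18.6, and 75.0 CPM and at 39.9, 69.2, 14.5, and 15.2 CPM in the same order. The clock gene *Per1* and the kinase gene *Plk3* were likewise highest in control mice 1 and 2 and in knockout mouse 4, and these examples were chosen after their values had been seen. The heat shock genes as a list did not follow these libraries. The 11 genes together were at 837, 786.1, 735.8, and 912.7 CPM in knockout mice 1 to 4 and at 844.4, 1143, 967.7, and 1031 CPM in control mice 1 to 4, and *Hsp90aa1*, also chosen after its values had been seen, was lowest in control mouse 1 (61.8 CPM) and highest in control mouse 3 (140.6 CPM). Of the 11 genes, 0 were called, with *Hspa8* at 300.3 ± 33.4 and 390.7 ± 39.0 CPM in knockout and control mice (SD, n = 4 each). Knockout mouse 2, the highest library for *Fos*, *Egr1*, and *Nr4a1*, was not among the high libraries for *Per1*, *Sgk1*, *Plk3*, or *Hspa1b*.

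**Figure D5:**
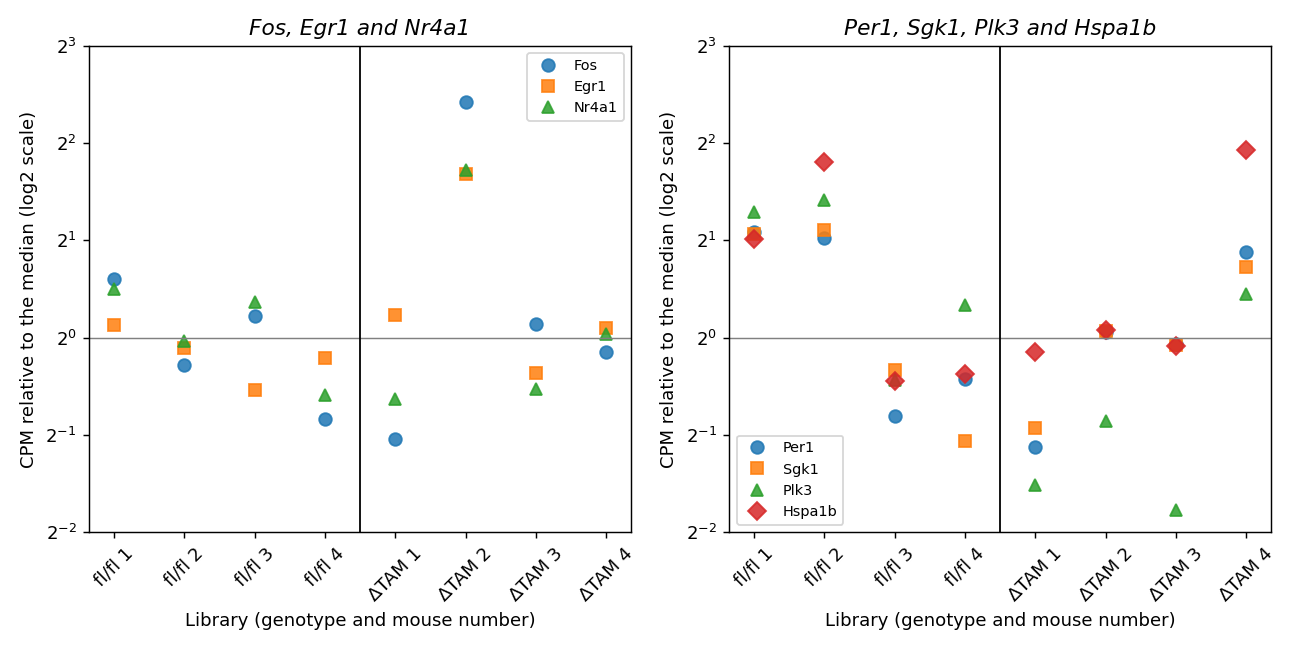
CPM relative to each gene's median over the 8 libraries (log2 scale) for *Fos*, *Egr1*, and *Nr4a1* (left) and for *Per1*, *Sgk1*, *Plk3*, and *Hspa1b* (right), with control mice to the left of the vertical line and knockout mice to its right. The left genes peak in knockout mouse 2, and the right genes are highest in control mice 1 and 2 and knockout mouse 4.

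Markers of other cell types were compared because immediate early genes are induced in many cells. The 8 endothelial markers summed to 530.2 to 600.4 CPM in knockout and 590 to 681.7 CPM in control mice. Of these, 1 of 8 was lower, beside 1.58% of all tested genes. It was *Kdr* (log2 fold change -0.37, edgeR adjusted *P* = 0.045), past the threshold in 0 of 8 fits with a mouse left out. The 8 macrophage markers summed to 113.8 to 123.7 and 95.2 to 105.6 CPM, with 0 of 8 called. The 7 neutrophil markers summed to at most 1.73 CPM, and the 8 lymphocyte markers to at most 5.38 CPM. The 8 fibroblast and smooth muscle markers summed to 411.7 to 538 CPM in knockout mice and 331.9 to 571.6 CPM in control mice, and the 5 podocyte markers to 370.9 to 512.1 and 397.6 to 499.4 CPM, with none called. Knockout mouse 2 was within the range of the other libraries in each of these 6 lists. Among 8 proximal tubule markers, *Slc34a1*, the phosphate carrier of the brush border, fell by 1.23 on the log2 scale (adjusted *P* = 0.000217), and the list summed to 15880 to 19940 CPM in knockout and 21470 to 25250 CPM in control mice. The part of these cell types in the levels of the immediate early genes was not tested.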

How the data were processed

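RNA-Seq was analysed in whole kidneys of 4 *c-Maf*ΔTAM (knockout) and 4 *c-Maf* fl/fl (control) mice. The deposited values are raw counts. Per the file header, the authors ran featureCounts 2.0.1, summing reads by gene name over exons of Ensembl release 102 (GRCm38). Each read of a pair was counted, without strand, although the library kit is directional, and reads on exons of more than 1 gene were left out. The aligner is not given in the sources used here. The paper's own route (CLC Genomics Workbench, quantile method, and edgeR test) starts from reads and was not repeated. The submitters' processing notes also name Subread 2.0.2 and edgeR 3.36.0. 

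Genes were filtered with filterByExpr (20149 of 55367 kept; all 10 members passed), scaled by TMM (factors 0.857 to 1.11), and compared with the robust quasi-likelihood test of edgeR 4.0.16 (R 4.3.3, limma 3.58.1) without covariates, at a Benjamini-Hochberg adjusted *P* of 0.05 over all tested genes. Standard errors were obtained from the *F* statistic and the size of the log2 fold change. A prior count of 2 was added for log2 CPM, and exact permutation tests enumerated 70 assignments. Pairs of libraries of one genotype differed by more than sampling noise, so each counted once. Nothing in the labels names litters or cages, and *P* values measure the spread between these mice.

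The members and the gene lists were chosen with earlier results of these data known. Named genes were all members, *Maf*, the called genes of each list or its most abundant genes, and the tested genes most like the group. Other genes named in the text, such as paralogs of members, *Etv4*, *Per1*, *Plk3*, and *Hspa1b*, were chosen after their values were seen. A gene that the rule also names is not reported here. The alternatives tried were DESeq2 1.42.0, edgeR's exact test, limma-trend after quantile normalization, upper-quartile factors or RLE in place of TMM, 2 other filters on low counts, the replicate number as a block, an *Xist* covariate, the 5 libraries with high *Xist*, an adjusted *P* of 0.01, exclusion of mitochondrial and ribosomal RNA genes, and each mouse left out. Scripts were tested on simulated counts. Transcripts were from GENCODE M21 (GRCm38), 1 coding transcript per gene. Promoters were from RefSeq. Python 3.11.15 and matplotlib 3.10.9 were used for figures.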

Additional observations from a re-analysis of the deposited data

Results flagged for a closer look

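Among 20 groups of 4 mice (10 members in 2 genotypes), 3 had an outlying value in CPM. The gap of that value to the nearest other, relative to the whole range, exceeded Dixon's 95% limit for 4 values. Chance alone gives about 1 in 20 groups if the groups are independent and the values normally distributed. The members tended to vary together and CPM was not log-transformed, so the flags do not measure an excess over chance. Log2 values were not examined in this way. All 3 were in knockout mouse 2. *Fos* was at 6.78 CPM there, against 0.611 to 1.39 CPM in the other 3 knockout mice (ratio 0.874). *Egr1* was at 33.8 CPM against 8.15 to 12.3 CPM (ratio 0.838). *Nr4a1* was at 14.8 CPM against 2.90 to 4.60 CPM (ratio 0.857). This library had 18896014 counts and a mitochondrial share of 22.1%, both within the range of the other libraries.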

How the results depend on the processing

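The count of members called higher stayed at 0 under all alternatives, and that of members called lower was 0 except with the *Xist* covariate, where it was 1 (*Ier2*). The median log2 fold change of the members ranged from -0.21 to 0.17. With single mice left out, the log2 fold change changed sign in 6 members, none of them called: *Fos* ranged from -0.30 to 1.27, *Nr4a1* from -0.47 to 0.62, *Fosb* from -0.046 to 1.09, *Ier3* from -0.29 to 0.18, *Junb* from -0.15 to 0.078, and *Zfp36* from -0.18 to 0.068. Upper-quartile factors gave 0.0081 for *Junb*. Of all tested genes, 436 were called in the reported fit, 886 with DESeq2, 1441 with the *Xist* covariate, 789 in the 5 libraries with high *Xist*, 180 at an adjusted *P* of 0.01, and 239 to 452 with single mice left out (239 without knockout mouse 3, 256 without knockout mouse 2, and 285 without control mouse 3). In the 7 related lists together, 1 gene was higher and 4 were lower in the reported fit. DESeq2 gave 7 lower, the *Xist* covariate 2 higher and 10 lower. The higher count was 0 with quantile normalization, with at least 10 counts in every library, in the libraries with high *Xist*, and at an adjusted *P* of 0.01, and 0 to 1 with single mice left out. The cause of these differences was not tested. With the replicate number as a block, 129 genes were called, and 0 related genes were higher and 2 were lower. The deviations of same-numbered mice from their genotype means had correlations of -0.465, 0.211, -0.161, and -0.431 for numbers 1 to 4. Under numbers 1, 3, and 4, a library with low *Xist* met one with high *Xist*. These correlations therefore cannot decide whether the numbers pair the mice. *Fosb*, with 2 to 24 counts, did not pass the filter of 10 counts in every library.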

Other observations

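Outside the lists, the 5 genes among 17322 with at least 1 CPM whose log2 CPM followed the mean z score of the members most closely over the 8 libraries were *Gm3724*, *Tatdn3*, *Rnf170*, *Man2c1*, and *A130010J15Rik*, which were picked for this likeness. *Tatdn3*, for example, was at 4.27, 8.16, 5.21, and 7.15 CPM in knockout mice 1 to 4 and at 7.99, 6.68, 6.24, and 5.63 CPM in control mice 1 to 4. None of them differed between genotypes (adjusted *P* of 0.882 to 0.978, edgeR's quasi-likelihood test).

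The list of 8 hepatocyte markers, used to check the tissue, summed to 1429 CPM in knockout mouse 1 and to 488.7 and 661.8 CPM in control mice 3 and 4, the libraries with low *Xist*, against 79.9 to 178.9 CPM in the other 5. In those 3 libraries most of it was *Cyp2e1*, at 1398, 432.6, and 605.6 CPM, and *Cyp2e1* was at 47.2 to 133.5 CPM in the others. The 5 thick limb markers summed to 4034 to 6862 CPM in knockout and 5713 to 7017 CPM in control mice, and the 8 distal tubule and collecting duct markers to 1513 to 2355 and 1547 to 2316 CPM, with 0 genes of either list called.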
